A study of Drosophila melanogaster with 12 samples.

Results

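Organic anion transporting polypeptides (Oatps) are membrane proteins of the SLC21/SLCO family that carry large amphipathic organic anions, among them hormones, conjugated metabolites and many drugs, across the plasma membrane. In *Drosophila* they are known from epithelia that clear such compounds, above all the Malpighian tubules, and from the glia of the blood-brain barrier, where uptake by Oatps is followed by export through ABC transporters. *Oatp74D* encodes the Ecdysone Importer, through which the steroid hormone ecdysone enters cells, and the RefSeq gene table lists *Oatp33Ea*, *Oatp58Dc* and *Oatp58Db* as further members of the ecdysone importer (EcI) series. All probe sets that the array annotation maps to a single gene were taken if the symbol of that gene begins with Oatp. This rule found 8 probe sets for 8 genes, of 11982 genes with such a probe set, and the RefSeq table also holds 8 *Oatp* genes. The rule used no measured value.

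The samples formed 4 groups of 3, and the RNA of each sample was hybridized to 1 Affymetrix *Drosophila* array. The groups were *loj* abdomen, control abdomen, *loj* head/thorax and control head/thorax, where *loj* (*logjam*) encodes a p24 protein, a membrane component of the vesicles that shuttle cargo between endoplasmic reticulum and Golgi. *loj* females carried the allele loj 00898 over the allele loj 04026. Each control sample combined 6 females of the genotype loj 00898/+ with 6 of the genotype loj 04026/+, so control females carried 1 mutant copy and a control value is the average of both heterozygotes. All females were 4 days old and had mated once with a wild-type male, and the 12 females of a sample were dissected 3 h after mating. The abdomens held the ovaries, genital tract, gut and fat, and the head/thorax held the central nervous system.

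Each deposited value is the intensity of 1 probe set on 1 array, on a linear scale. It was taken as above background where it exceeded 95% of the 27 *Bacillus subtilis* control probe sets of that array (their 95th percentile), a level of 76.8 to 108 on *loj* and 91.2 to 131 on control abdomen arrays, and of 126 to 236 on *loj* and 206 to 256 on control head/thorax arrays. Probe sets differ in their own brightness, so intensities are set against each other between arrays and never between genes. The probe set for *loj* itself averaged 39.6 ± 3.14 in *loj* and 1024 ± 90.1 in control abdomens, and 34.7 ± 4.97 in *loj* and 1135 ± 93.9 in control head/thorax (SD, n = 3 arrays each), which fits the labels of all 12 arrays. The tissue labels were checked with markers. The germline genes *osk* and *bcd* were above background only in abdomen, and the photoreceptor genes *trp* and *inaC* and the flight muscle genes *Act88F*, *TpnC4* and *fln* only in head/thorax. The midgut enzyme genes did not separate the tissues: *betaTry* averaged 11103 in abdomen and 12584 in head/thorax of *loj* females, *alphaTry* averaged 13389.9 in abdomen and 14393 in head/thorax, and none of the 3 measured was called between tissues in either genotype. The *Actin 5C* control probe sets, whose 3′ over 5′ ratio grows with RNA degradation, gave a log2 ratio of 0.79 to 1.02 in *loj* and 1.33 to 1.44 in control head/thorax, and of 0.67 to 0.72 in *loj* and 0.76 to 0.91 in control abdomens. The ratio was thus lower on every *loj* array than on every control array of its tissue, and its part in the results below was not tested.

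The first question was which *Oatp* genes differ between *loj* and control females. In the abdomen 2 of the 8 did: *Oatp33Eb* rose 1.65-fold and *Oatp58Db* fell at least 1.6-fold in *loj*, a bound on the group means. Among the other 6 genes log2 changes lay between -0.16 and 0.20. They include *Oatp74D*, the gene of the known ecdysone importer, and *Oatp26F*, which was not above background on any array. In the head/thorax no *Oatp* gene passed the test. A probe set was called at a Benjamini-Hochberg adjusted p under 0.05 over all 18769 probe sets tested with limma and at a change of at least 1.5-fold, and 0.874% of all probe sets were called in abdomen (0.618% higher and 0.256% lower in *loj*) and 1.86% in head/thorax.

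**Figure D1:**
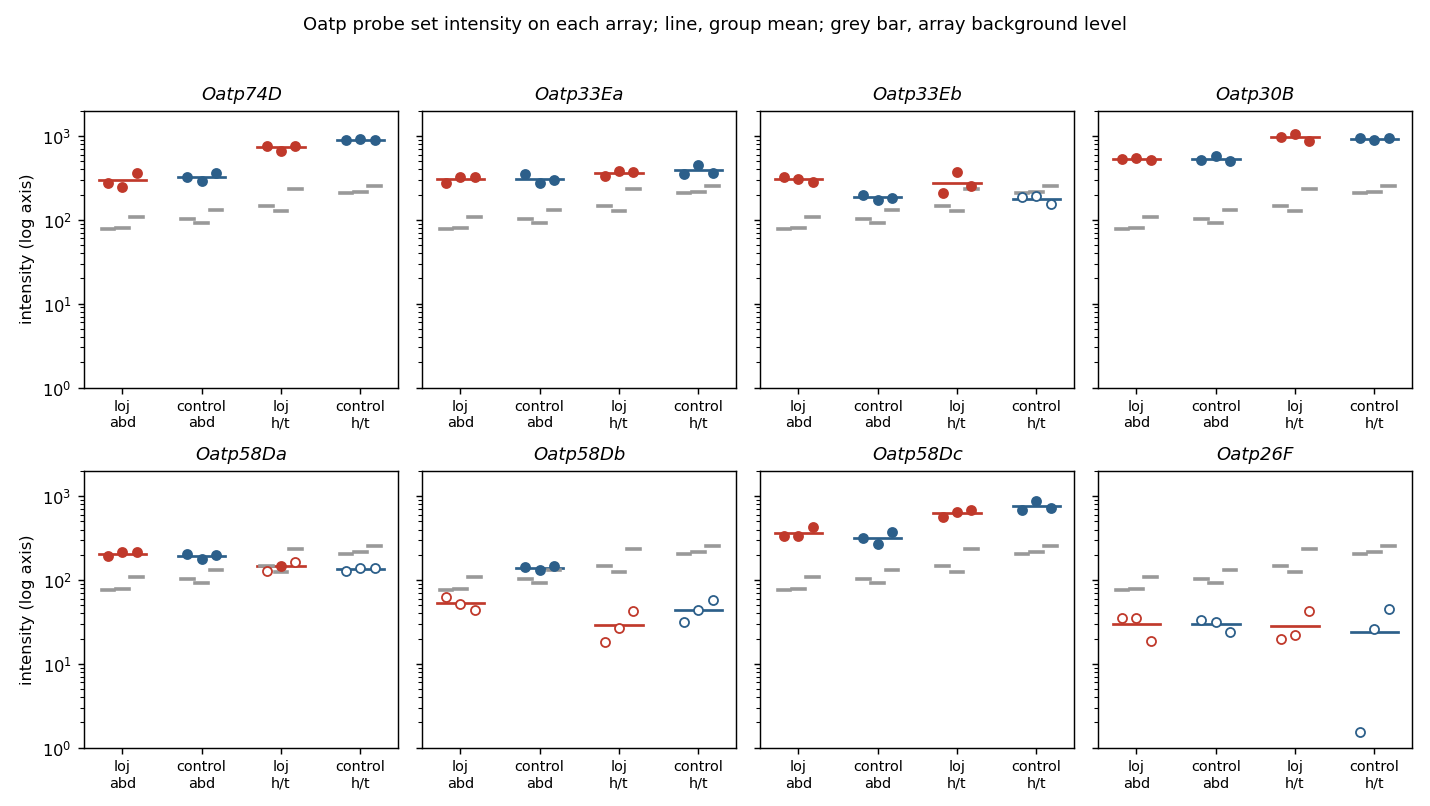
Intensity (log axis) of the 8 *Oatp* probe sets on each of the 12 arrays, with *loj* (red) and control (blue) in abdomen (abd) and head/thorax (h/t). Lines are group means, grey bars the background level of each array, and open points lie at or below it; the *loj* abdomen points of *Oatp33Eb* lie above, and those of *Oatp58Db* below, all control abdomen points, and *Oatp26F* is open in every group.

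*Oatp58Db* lies on chromosome arm 2R between *Oatp58Da* and *Oatp58Dc*, and no other gene separates the 3 in the RefSeq gene order (Release 6). These genes are known for strong expression in Malpighian tubules, the excretory organ of the fly, which is dissected with the abdomen. *Oatp58Db* had intensities of 62.2, 51.4 and 44.2 in *loj* abdomens, against 141, 132 and 145 in control abdomens. Every *loj* array was below every control array, and every *loj* value was also below the background level of its array, while every control value was above it. The measured means, 52.6 ± 9.04 and 139.5 ± 6.86 (SD, n = 3 each), therefore give only a bound on the fold, and *Oatp58Db* was at least 1.6-fold lower in *loj* abdomens. This bound sets the mean of the control arrays against the mean background level of the *loj* arrays, and it takes no account of the spread between arrays. The log2 change of the measured values was -1.42 (SE 0.16, 95% interval -1.81 to -1.03, adjusted p = 0.0226, limma).

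Neither of the genes beside it was called. *Oatp58Da* had 194, 214 and 213 in *loj* abdomens and 206, 178 and 201 in control abdomens, with overlapping groups and a log2 change of 0.09 (95% interval -0.13 to 0.31). *Oatp58Dc*, known also from the glia of the blood-brain barrier, had 332, 336 and 428 in *loj* abdomens and 313, 272 and 369 in control abdomens, again overlapping, and its log2 change was 0.20 (95% interval -0.17 to 0.58).

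Markers of the Malpighian tubule were set beside *Oatp58Db*. Of 10 listed genes 7 were measured, and none was called in abdomen (median log2 change -0.13, against -0.03 over all probe sets). The list does not mark the tubule alone, since 5 of the 7 were called lower in abdomen than in head/thorax in each genotype (35.1% of all probe sets were in *loj* and 33% in control), and only *ZnT35C*, a zinc transporter of the tubule, was higher. The summed intensity of the 7 was 2108 to 2285 in *loj* and 2493 to 2755 in control abdomens, so the groups did not overlap. Most of that gap was *ZnT35C*, at 1232 in *loj* and 1606 in control abdomens (log2 change -0.38, adjusted p = 0.0783, limma). *Irk3*, a potassium channel of the tubule, stood at 302 in *loj* and 333 in control abdomens, and the chloride channel gene *ClC-a* at 201 in *loj* and 225 in control abdomens. Others ran the opposite way, with the water channel gene *Drip* at 299 in *loj* and 243 in control abdomens (log2 change 0.30, adjusted p = 0.134, limma) and *SecCl* at 86.9 in *loj* and 69.7 in control abdomens. The receptor genes *Lkr* and *Dh44-R2* were not above background in either group of abdomens, and *SecCl* was so only on 2 *loj* arrays. The 4 fat body markers summed to 20862 to 22112 in *loj* and 22846 to 25917 in control abdomens. In RNA of a whole abdomen, fewer cells of a type and less RNA per cell cannot be told apart, and the part of these markers in the lower *Oatp58Db* was not tested.

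*Oatp33Eb* lies on arm 2L, where *CG5421* separates it from its paralogue *Oatp33Ea*. Its intensity was 323, 307 and 285 in *loj* abdomens and 198, 173 and 182 in control abdomens. All 3 *loj* arrays were above all 3 control arrays, and both groups were above background on every array. The means were 305 ± 19 in *loj* and 185 ± 12.5 in control abdomens (SD, n = 3 each). The log2 change was 0.73 (SE 0.09, 95% interval 0.52 to 0.94, adjusted p = 0.0276, limma), the 98th by size of the 116 higher calls and so among the smaller ones. *Oatp33Ea* was not called. It had 278, 322 and 323 in *loj* abdomens and 349.6, 275 and 301 in control abdomens, and its log2 change was 0.00 with an interval of -0.28 to 0.28. A ratio within each array removes a scaling factor common to all probe sets of that array, but not a scaling that depends on intensity. The log2 ratio of *Oatp33Eb* to *Oatp33Ea* was -0.18 to 0.22 on the *loj* and -0.82 to -0.66 on the control abdomen arrays, without overlap. The difference was 0.73. Its exact two-sided permutation p was 0.1 (0.15 after adjustment over 6 such ratios), the smallest possible with 3 arrays against 3. No lower p could arise, so this test cannot decide whether the ratio differs between the genotypes. The difference repeats the log2 change of *Oatp33Eb*, since that of *Oatp33Ea* was 0.00. It rests on the same arrays and is not separate evidence for the call. The other 5 ratios, to *Oatp33Ea* in head/thorax and of *Oatp58Db* to its neighbours in both tissues, are not given because 1 gene was at background in at least 1 group. Of the markers of other cell types, the 4 of hemocytes, the blood cells, summed to 441 to 569 in *loj* and 357 to 418 in control abdomens without overlap. Only *Hml* was above background on every abdomen array. *NimC1* and *Pxn* were so on 2 *loj* and 1 control array each, and *eater* on 2 *loj* arrays and no control array. None of the 4 was called, and their part in the higher *Oatp33Eb* was not tested. The abdomen sums of follicle cells (12179 to 16518 in *loj* and 16224 to 22367 in control), germline, midgut and glia overlapped between the genotypes. Those of flight muscle did not, but none of its genes was above background there.

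Neither abdomen call held when any single array of the 6 was left out. The log2 change of *Oatp33Eb* then stayed between 0.68 and 0.78, with adjusted p between 0.0754 and 0.153, and that of *Oatp58Db* between -1.55 and -1.30, with adjusted p between 0.0576 and 0.124 (limma). Replicate 3 of control abdomen stood apart from the other 5 abdomen arrays in an 18S ribosomal RNA control probe set, at 639 against 83.2 to 191, and without it the adjusted p was 0.0798 for *Oatp33Eb* and 0.0778 for *Oatp58Db* (limma). With 3 arrays per group the number of arrays limits the precision. Arrays of *loj* and control did not overlap for these 2 of the 8 *Oatp* genes, and for 19.5% of all probe sets.

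**Figure D2:**
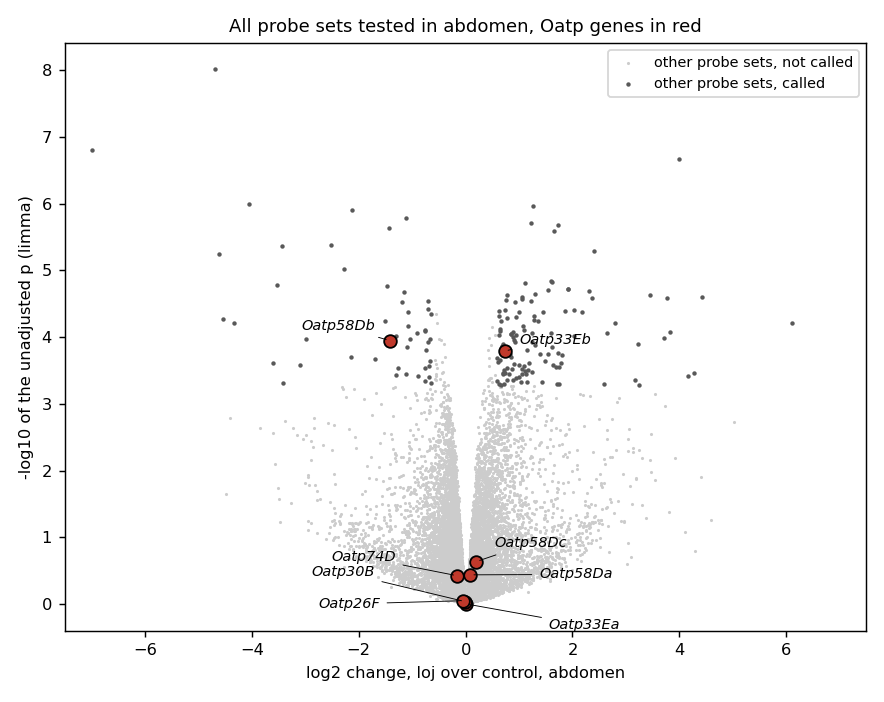
Log2 change (*loj* over control) against -log10 of the unadjusted limma p for all 18769 probe sets in abdomen, with called probe sets in dark grey and the 8 *Oatp* genes in red. *Oatp33Eb* (0.73) and *Oatp58Db* (-1.42) lie among the 164 called probe sets, and the other 6 lie near 0 at the foot of the plot, *Oatp26F* on values at background.

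*Oatp74D* and *Oatp30B* completed the abdomen. *Oatp74D* had 277, 248 and 366 in *loj* abdomens and 328, 293 and 365 in control abdomens, so the groups overlapped, and its log2 change of -0.16 had an interval of -0.57 to 0.25. *Oatp30B* had the narrowest 95% interval of the 8 there. It had 525, 542 and 520.2 in *loj* abdomens and 515, 577 and 506 in control abdomens, and its interval, -0.17 to 0.16, leaves no room for a 1.5-fold change in either direction. Its probe set belongs to a class that can match several transcripts. *Oatp26F* was not above background on any of the 12 arrays, whose intensities ran from 1.56 to 44.6, and no fold is given for it in any comparison.

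In the head/thorax none of the 8 was called, where 1.86% of all probe sets were. At an unadjusted p under 0.05, which 17.8% of all probe sets met, 2 of the 8 remained, *Oatp74D* and *Oatp33Eb*. *Oatp74D* had 762, 665 and 766 in *loj* head/thorax and 888, 915 and 895 in control head/thorax, and every *loj* array was below every control array. Its means were 731 ± 57.4 in *loj* and 899 ± 13.7 in control head/thorax (SD, n = 3 each), and its log2 change was -0.30 (SE 0.07, 95% interval -0.46 to -0.14, adjusted p = 0.077, limma). The whole interval lies short of 1.5-fold. *Oatp33Eb* had 206, 367 and 250.3 in *loj* head/thorax and 187, 193 and 156 in control head/thorax, where it was not above background on any array. The groups did not overlap, and the measured log2 change was 0.58 (SE 0.23, 95% interval 0.03 to 1.14, adjusted p = 0.256, limma). The mean of the *loj* arrays was 1.19-fold above the mean background level of the control arrays. That figure takes no account of the spread between arrays, and the interval reaches almost to 0. Replicate 2 stood well above the other two *loj* arrays.

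*Oatp58Dc* had 559, 655 and 688 in *loj* head/thorax, against 689, 882 and 719.8 in control head/thorax. The highest *loj* value lay just under the lowest control value, and the log2 change was -0.27 (95% interval -0.57 to 0.04, adjusted p = 0.339, limma). Arrays of the 2 genotypes thus did not overlap for 3 of the 8 genes, and for 23.8% of all probe sets. *Oatp30B* had 966, 1061 and 875 in *loj* head/thorax and 939, 887 and 949 in control head/thorax (log2 change 0.06), and *Oatp33Ea* had 334, 377 and 368 in *loj* head/thorax and 356, 444 and 363 in control head/thorax (log2 change -0.10). Both overlapped. *Oatp58Da* had 129, 146 and 164 in *loj* head/thorax, above background on 1 array, and 129, 139.6 and 139 in control head/thorax, above it on none. *Oatp58Db*, at 18.1, 27.1 and 42.7 in *loj* and 31.3, 43.7 and 57.0 in control head/thorax, was at background in both groups, so no fold is given. Replicate 1 of *loj* head/thorax stood apart from the other 5 head/thorax arrays in the 18S control probe set, at 4103 against 410 to 569. Without it, as without any other head/thorax array, the count of called *Oatp* genes was 0.

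**Figure D3:**
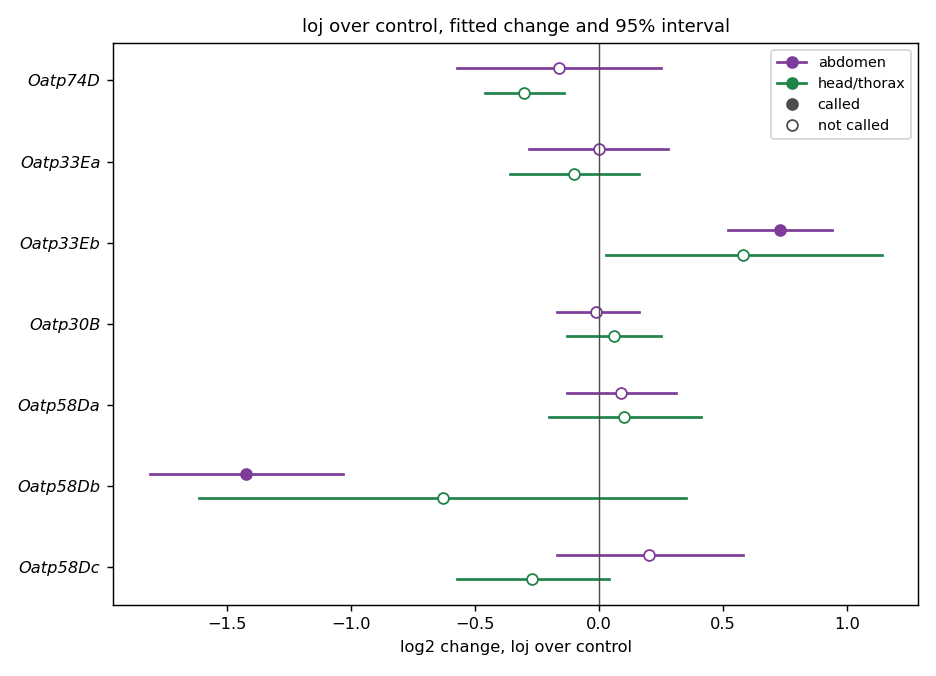
Log2 change of *loj* over control with its 95% interval for the 7 *Oatp* genes above background in any group, in abdomen (purple) and head/thorax (green). Filled points are called, *Oatp33Eb* and *Oatp58Db* in abdomen. In head/thorax *Oatp58Db* rests on values at background in both groups, and *Oatp33Eb* and *Oatp58Da* on control values at background.

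Whether the effect of *loj* differed between the tissues was tested as an interaction over all 12 arrays. None of the 8 was called, and 0.506% of all probe sets were. *Oatp58Dc* came closest, with a log2 change 0.47 higher in abdomen than in head/thorax (SE 0.21, 95% interval 0.02 to 0.92, unadjusted p = 0.043, adjusted p = 0.508, limma), and it alone of the 8 had an unadjusted p under 0.05, as 9.38% of all probe sets did. For *Oatp58Db* the difference was -0.79 (95% interval -1.75 to 0.18, adjusted p = 0.65, limma) and for *Oatp33Eb* 0.14 (95% interval -0.41 to 0.70). *Oatp58Db* was at background in both groups of head/thorax and in *loj* abdomen. Its effect in head/thorax was thus not measured, and this test cannot decide whether the tissues differ. The difference of *Oatp33Eb* rests on control head/thorax values at background. For neither gene was the abdomen change shown to differ from that in head/thorax.

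The second question was how the genes divide between abdomen and head/thorax. *Oatp74D*, *Oatp58Dc* and *Oatp30B* were lower in abdomen than in head/thorax in both genotypes. *Oatp58Db* also passed the test, but on values at background in 1 or both tissues. The 2 genotypes have separate arrays, but the comparisons between tissues use the same arrays as those between genotypes and are not independent of them. The test called 4 of the 8 in each genotype, 1 higher and 3 lower in abdomen, where 56.6% of all probe sets were called in *loj* (21.5% higher and 35.1% lower) and 55.6% in control (22.6% higher and 33% lower). A share of 4 in 8 is thus no more than that of all probe sets. Over all probe sets the median log2 change, abdomen over head/thorax, was -0.29 in *loj* and -0.22 in control, since head/thorax arrays were brighter, and how arrays were scaled is not stated.

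*Oatp74D* had the largest such change of the 3 in both genotypes. It averaged 297 ± 61.7 in *loj* abdomen and 731 ± 57.4 in *loj* head/thorax (SD, n = 3 each), a log2 change of -1.32 (SE 0.13, adjusted p = 2.65e-06, limma). In controls it averaged 328 ± 35.9 in abdomen and 899 ± 13.7 in head/thorax, a log2 change of -1.46 (adjusted p = 1.01e-06, limma). It was called under all scalings tried, with -1.21 and -0.69 in *loj* after quantile normalization and median centring, and -1.39 and -0.87 in control. In order of level, control head/thorax came before *loj* head/thorax, and both came before the 2 groups of abdomens, which overlapped.

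*Oatp58Dc* averaged 366 ± 54.2 in *loj* abdomen and 634 ± 67.5 in *loj* head/thorax (SD, n = 3 each), a log2 change of -0.80 (SE 0.15, adjusted p = 0.000395, limma), and 318 ± 48.6 in control abdomen and 764 ± 104 in control head/thorax, a log2 change of -1.27 (SE 0.15, adjusted p = 8.11e-06). *Oatp30B* averaged 529 ± 11.6 in *loj* abdomen and 967 ± 93.1 in *loj* head/thorax, a log2 change of -0.87 (SE 0.08, adjusted p = 1.18e-06, limma), and 533 ± 38.5 in control abdomen and 925 ± 33.4 in control head/thorax, a log2 change of -0.80 (adjusted p = 2.42e-06). For both genes abdomen and head/thorax arrays did not overlap in either genotype. Median centring, which makes the median of every array equal, took *Oatp30B* to -0.24 in *loj* and -0.21 in control and *Oatp58Dc* to -0.18 in *loj*, none of them called, while *Oatp58Dc* in control stayed called at -0.67.

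**Figure D4:**
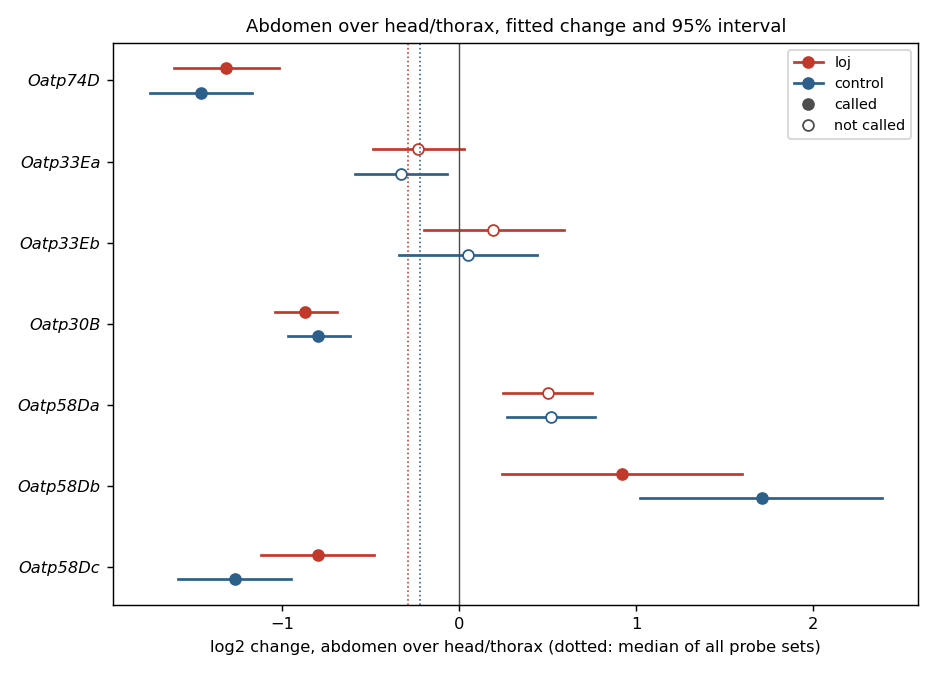
Log2 change of abdomen over head/thorax with its 95% interval for the 7 *Oatp* genes above background in any group, in *loj* (red) and control (blue). Filled points are called and dotted lines mark the median of all probe sets (-0.29 in *loj*, -0.22 in control). *Oatp74D*, *Oatp58Dc* and *Oatp30B* lie to the left of these lines in both genotypes, and *Oatp58Da* and *Oatp58Db* to the right. *Oatp58Db* rests on values at background in 1 or both tissues, and *Oatp58Da* and *Oatp33Eb* in control on head/thorax values at background.

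The call of *Oatp58Db* as higher in abdomen, made in both genotypes, rests on values at background. In controls it had a mean of 139.5 in abdomen, above background on 3 arrays, and of 44 in head/thorax, above it on none (log2 change of the measured values 1.71, SE 0.31, adjusted p = 0.000406, limma). The head/thorax background level exceeded the abdomen intensity, so no fold is given. In *loj* the means were 52.6 in abdomen and 29.3 in head/thorax, both at background, and again no fold is given; the call was lost without replicate 1 of *loj* abdomen (adjusted p = 0.0766, limma) or of *loj* head/thorax (adjusted p = 0.087), in a fit to the 6 *loj* arrays alone (adjusted p = 0.0599), and with an offset or a floor of 32, where the log2 changes of 0.48 and 0.56 fell short of 1.5-fold. *Oatp58Da* averaged 207 ± 11 in *loj* abdomen and 146 ± 17.4 in *loj* head/thorax, and 195 ± 15 in control abdomen and 136 ± 6.2 in control head/thorax (SD, n = 3 each). The log2 changes of the measured values, 0.50 (adjusted p = 0.00193, limma) and 0.52 (adjusted p = 0.00157), fell short of 1.5-fold. Under quantile normalization they were 0.94 and 0.95 and called. In head/thorax *Oatp58Da* was above background on 1 *loj* array and on no control array, so no fold is given. Without replicate 3 of *loj* head/thorax the change in *loj* was 0.59, and it was called. *Oatp33Ea* (-0.23 in *loj*, -0.33 in control) and *Oatp33Eb* (0.19 in *loj*, 0.05 in control) were not called in either genotype, and *Oatp33Ea* became 0.40 and 0.26 after median centring. The control change of *Oatp33Eb* rests on head/thorax values at background. Abdomen and head/thorax arrays did not overlap for 6 of the 8 genes in each genotype, where the share of all probe sets was 70.1% in *loj* and 69.8% in control. Of the glia and blood-brain barrier markers 5 of 6 were called lower in abdomen in each genotype. Of all probe sets 35.1% were in *loj* and 33% in control. The glia markers summed to 2338 to 2637 in *loj* abdomen and 8065 to 9210.4 in *loj* head/thorax. In each genotype all measured markers of neurons (3), photoreceptors (2), flight muscle (3) and hemocytes (4) were also called lower in abdomen. So were 3 of 4 of fat body and 5 of 7 of the tubule list. The measured germline (2) and follicle cell (3) markers were all called higher, and none of midgut was called. The part of any of these lists in the tissue pattern of *Oatp58Dc* and *Oatp74D* was not tested.

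The genes whose log2 intensities followed each *Oatp* most closely over the 12 arrays were taken among probe sets above background in the same group. Pearson's r describes these arrays only, since they fall into 2 tissues and share depth and scaling. *Oatp74D* was most like *Vago* (0.993), *CG4658* (0.992) and *AkhR* (0.992), the receptor of adipokinetic hormone. *Oatp58Dc* was most like *CG6465* (0.982), the cytochrome P450 gene *Cyp6g1* (0.975), known from insecticide resistance, and *CG9119* (0.974). *Oatp30B* followed *CG10962*, *Gs1l* and *CG18507* (0.99 to 0.991), and *Oatp58Da* followed *veil*, *CG6726* and *CG8159* (0.97 to 0.977). The highest r was lower for the remaining 3 genes. *Oatp33Eb* was most like *CG13482* (0.939), the stress kinase gene *p38c* (0.933) and *CG13311* (0.93), and *Oatp58Db* most like the exosome subunit gene *Rrp40* (0.946), *slpr* (0.934), which encodes a kinase upstream of JNK, and *kumpel* (0.925). *Oatp33Ea* was most like the transcription factor gene *Sox14* (0.915), *CG18547* (0.896) and *pn* (0.88). For *Oatp58Db* only control abdomen was above background, so its r rests mostly on values at background. *Oatp33Eb* was at background in control head/thorax, and *Oatp58Da* in head/thorax on all arrays but 1 of *loj*.

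Other genes that move the same kinds of compound were listed beside the family. Of the 22 SLC22 genes, a separate family of organic cation and anion transporters, all were measured. In *loj* abdomens 1 was called higher, *CG16727* (415 in *loj* and 275 in control, log2 change 0.59, adjusted p = 0.0326, limma), and none lower. In *loj* head/thorax 1 was called lower, *CG8654* (568 in *loj* and 1673 in control, log2 change -1.56, adjusted p = 0.00569), and none higher. Between tissues, 5 were higher and 11 lower in *loj* abdomen and 4 higher and 12 lower in control abdomen (over all probe sets 21.5% higher and 35.1% lower in *loj*, and 22.6% and 33% in control), among them *Orct*, an organic cation transporter, at 165 in abdomen and 939.8 in head/thorax of *loj* females.

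Of 16 ABC efflux transporters 15 were measured. *Mdr49*, a P-glycoprotein, was the only one called in *loj* abdomens, at 531 in *loj* and 236 in control (log2 change 1.18, SE 0.15, adjusted p = 0.0356, limma). It was not called in head/thorax, at 1487 in *loj* and 1097 in control (log2 change 0.42, adjusted p = 0.197), nor was any other of the list. *Mdr65*, the P-glycoprotein of the blood-brain barrier, had 339.9 in *loj* and 324 in control head/thorax and was at background in abdomen. Between tissues 6 were higher and 5 lower in *loj* abdomen, and 8 higher and 5 lower in control abdomen, beside the same shares of all probe sets (21.5% higher and 35.1% lower in *loj*, 22.6% and 33% in control).

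Of 17 genes of ecdysone signalling and turnover 14 were measured, and none was called between *loj* and control in either tissue (median log2 change -0.11 in abdomen and -0.10 in head/thorax, against -0.03 and -0.01 over all probe sets). *E23*, an ABC transporter that counters the ecdysone response, had 1411 in *loj* and 1570 in control abdomens. *Cyp18a1*, which inactivates ecdysone, had 366 in *loj* and 667 in control abdomens (log2 change -0.84, adjusted p = 0.175, limma). In head/thorax it had 1034 in *loj* and 1453 in control (log2 change -0.49, adjusted p = 0.0204), past the p threshold but short of 1.5-fold. Between tissues 4 were higher and 5 lower in *loj* abdomen, and 4 higher and 6 lower in control abdomen (all probe sets as for the ABC transporters), with *E23*, *ftz-f1*, *Hr39* and *usp*, a partner of the ecdysone receptor, higher in both.

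The measured genes within 2 places of an *Oatp* gene in the RefSeq order were looked at last. Apart from the *Oatp* genes themselves, none was called between *loj* and control in abdomen. *CG5421*, between *Oatp33Ea* and *Oatp33Eb*, had a log2 change of 0.00 there. *CG30278*, on the near side of *Oatp58Da*, had -0.15, and *dve*, on the far side of *Oatp58Dc*, had -0.21. *CG5418*, on the other side of *Oatp33Eb*, had -0.33. The largest changes outside the family were those of *edin*, next to *Oatp74D* (1.61, adjusted p = 0.742, limma), and *CG31883*, next to *Oatp30B* (-1, adjusted p = 0.763).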

How the data were processed

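Total RNA of 12 samples was hybridized, 1 array per sample, 3 for each of 4 groups of genotype and tissue. Per the labels, each sample is an independent extraction from 12 females. The authors deposited 1 intensity per probe set and array, on a linear scale. Their analysis rested on 3 kinds of value, from GCOS (version 1.2 in the submitters' processing notes) and from the PM and PM-MM models of dChip. Which kind the deposited intensity is, and how arrays were scaled, is not stated.

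A floor of 1 was set before log2, and 183 Affymetrix control probe sets were left out. With limma 3.58.1 (R 4.3.3, intensity trend), genotypes were compared for each tissue, and tissues and the interaction in a fit of 4 group means to all 12 arrays, after a test on simulated data. P values were adjusted by Benjamini-Hochberg over 18769 probe sets. A call needs an adjusted p under 0.05 and 1.5-fold, and for the interaction the adjusted p alone. The array annotation gives 1 gene symbol for 13647 probe sets, several for 402 and none for 4720; gene order and synonyms come from RefSeq (Release 6).

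Named are every *Oatp* probe set, *loj*, the 3 most similar genes (log2 intensity) of each *Oatp* above background, up to 4 called genes of each list, and markers; *Cyp18a1*, *Mdr65* in the genotype comparisons, *E23* in abdomen and the neighbouring genes were chosen after their values were seen. Where 1 group was at background, a bound replaced the fold. The members, lists, background level and tests were chosen with earlier results of these data known. Replicate numbers were tested as pairs after the group means were removed. *loj* and control arrays of the same number correlated by -0.01, -0.01 and 0.03 in abdomen and by 0.05, 0.04 and 0.12 in head/thorax. Over the 5968 probe sets above background on all 12 arrays they correlated by -0.07, 0.12 and 0.37 and by 0.06, 0.15 and 0.39. Arrays of different number there correlated by -0.46 to 0.41 in abdomen and by -0.27 to 0.16 in head/thorax. Only replicate 3 of head/thorax lay above its range, so pairing of genotypes was not settled. They were not taken as paired in the main test. Over the 5968, *loj* abdomen and *loj* head/thorax arrays of the same number correlated by 0.46, 0.26 and 0.44 (0.08, 0 and 0.06 over all probe sets). Those of different number correlated by -0.41 to -0.04, below every pair of the same number. Between the tissues of control, arrays of the same number correlated by 0.03, 0.17 and 0.42, and of different number by -0.3 to 0.2. The tissues of *loj* may thus be paired, and the main test between tissues did not take them as paired. The fit with replicate number as a block made 10618 calls between the tissues of *loj*, against 10630. It changed no *Oatp* call between tissues or for the interaction. Alternatives were quantile normalization, median centring, an offset and a floor of 32, a filter on dim probe sets, no intensity trend, no fold threshold, other samples in the fit, replicate number as a block, the methods' Cyber-T style test (window 101, confidence 10) and each array left out.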

Additional observations from a re-analysis of the deposited data

How the results depend on the processing

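With 3 arrays per group the abdomen calls were the least stable. The count of called *Oatp* genes in abdomen was 2, and it was 1 without dim probe sets, where *Oatp58Db* is not tested, 1 with no intensity trend, which lost *Oatp33Eb* (adjusted p = 0.0716, limma), and 0 with any single array left out (range 0 to 0). Replicate number as a block also gave 0, with adjusted p = 0.102 for *Oatp33Eb* and 0.122 for *Oatp58Db* (limma), and it cut the calls over all probe sets to 1, against 164 without it; in head/thorax it gave 135, against 350. With the block the list calls between genotypes were lost too (adjusted p = 0.14 for *CG16727*, 0.115 for *Mdr49* and 0.0537 for *CG8654*, limma). The block moved no member count in the other comparisons. Both genes were called in abdomen under both normalizations, an offset or floor of 32, no fold threshold, 1 fit to all 12 arrays and the Cyber-T style test. Calls over all probe sets numbered 55 with no intensity trend, 86 with values under 32 set to 32, 280 without dim probe sets, 419 in 1 fit and 526 by the Cyber-T style test in abdomen, and 197, 228, 360, 475 and 600 in head/thorax, where 645 passed with no fold threshold. With 1 array left out they numbered 22 to 52 in abdomen, 93 to 395 in head/thorax and 54 to 133 for the interaction, which had 95 calls, 144 with an offset of 32, 170 with a floor of 32 and 62 with the block. Without dim probe sets, 6516 were called between tissues in *loj* and 6501 in control, against 10630 and 10444. In head/thorax and for the interaction the member count was 0 throughout. Between tissues it was 3 to 5 in *loj* and 4 to 4 in control with 1 array left out; the 3 came without replicate 1 of *loj* abdomen or of *loj* head/thorax, which lost *Oatp58Db*, and also with an offset or floor of 32, without dim probe sets and in a fit to the 6 *loj* arrays alone.

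Scaling moved the tissue comparison. Of all calls 38% were higher in *loj* abdomen as deposited, 52.1% after quantile normalization and 62.7% after median centring, and in control 40.7%, 53.6% and 63.3%; the median of all probe sets became 0.11 and 0.33 in *loj* and 0.15 and 0.37 in control. *Oatp33Eb* was then called higher in abdomen after median centring, at 0.82 in *loj* and 0.65 in control, in control on head/thorax values at background. A background level taken from the 12 newer bacterial probe sets was an alternative chosen after seeing the data. *Oatp58Db* was above it on 2 of 3 *loj* abdomen arrays. With the remaining array raised to that level, *Oatp58Db* was at least 2.64-fold lower in *loj* abdomens, close to the 2.68-fold of the measured values. *Oatp33Eb* and *Oatp58Da* were above the newer level on all 12 arrays, so their limits in head/thorax depend on the 27 probe sets. In head/thorax *Oatp58Db* was not above it on any array.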
